A study of Mus musculus with 2 samples.

Results

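The genes that encode the proteins of the cytosolic ribosome were followed in single nuclei of the mouse hippocampus. They were taken by symbol: Rpl or Rps followed by a digit, together with Rplp0, Rplp1, Rplp2 and Rpsa, without the Rps6k kinases and without symbols marked as pseudogenes. This gave 86 of the 32285 genes in the count tables. They comprise 43 proteins of the large subunit, 31 of the small subunit, 3 of the stalk, 7 paralogues or repeat copies, and 2 genes with other roles whose symbols match (Rps19bp1 and Rpl7l1). The 77 genes of the first 3 groups are called the core members below.

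Nuclei came from dissected hippocampus of a Capza2+/- mouse line (heterozygous knockout) and of wild-type mice, with no other treatment. With 1 library per genotype, each difference reported compares 2 libraries and could not be checked against replicates or tested. The labels do not state the age of the animals or how many went into a library, and name no promoter or Cre line for the Capza2 knockout. Capza2 is the gene of a capping protein subunit that stops the growth of actin filaments, and the study asked whether cell populations differ between the genotypes.

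The ribosome joins a small subunit, which reads the mRNA, to a large subunit, which forms the peptide bonds. Each subunit is a core of ribosomal RNA coated with many different proteins, most of them present once per ribosome and made in matched amounts. The mRNAs of these proteins begin with a run of pyrimidines, the 5′ terminal oligopyrimidine tract, through which mTOR signalling adjusts how often they are translated. They are short, abundant and mostly cytoplasmic, so a count in isolated nuclei holds nuclear transcripts together with any cytoplasmic RNA that stays with or around the nucleus. Neurons move ribosomes and these mRNAs into dendrites and axons, where local protein synthesis supports plasticity.

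The first bases of the messages can be seen in the sequence around the transcription start. RefSeq windows (GRCm38.p6) were available for 66 members, and the lines below show 15 bases before to 15 bases from the start for members that departed most from the family or that stand for a group. A run of at least 8 letters C or T on the gene's own strand is in capitals.

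Rpl38 (chr11:114668565-114668594, plus strand): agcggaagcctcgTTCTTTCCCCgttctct
Rps27 (chr3:90213634-90213663, minus strand): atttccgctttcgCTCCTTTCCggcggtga
Rps18 (chr17:33955651-33955680, minus strand): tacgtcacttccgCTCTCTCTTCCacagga
Rplp2 (chr7:141447636-141447665, plus strand): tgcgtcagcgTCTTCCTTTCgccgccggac
Rpl13 (chr8:123102335-123102364, plus strand): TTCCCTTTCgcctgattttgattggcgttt
Rpl37 (chr15:5116598-5116627, plus strand): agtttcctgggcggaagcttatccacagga
Rps28 (chr17:33824548-33824577, minus strand): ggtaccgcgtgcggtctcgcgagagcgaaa
Rpl5 (chr5:107900513-107900542, plus strand): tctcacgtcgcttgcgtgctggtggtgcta
Rpl6 (chr5:121204486-121204515, plus strand): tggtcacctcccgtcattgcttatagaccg
Rps16 (chr7:28350674-28350703, plus strand): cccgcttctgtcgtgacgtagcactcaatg
Rps23 (chr13:90923107-90923136, plus strand): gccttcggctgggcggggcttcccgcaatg
Rps25 (chr9:44407699-44407728, plus strand): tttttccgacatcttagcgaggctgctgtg

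A pyrimidine run of at least 8 bases lay within these 30 bases at 26 of the 67 annotated starts of 57 core members (38.8%, exact 95% interval 27.1 to 51.5). Among all other genes the run lay at 3915 of 32773 starts (11.9%). On the opposite strand the shares were 4.48% of core member starts and 13.3% of other starts. The runs thus lay on the coding strand of the ribosomal protein genes, as in Rpl38 and Rps18 above, whereas Rps23 and Rps25 showed no such run at the start listed. A match is a description of these letters only, and a start that is misplaced by a few bases moves the window.

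Both libraries held neurons, glia and vascular cells of the hippocampus. The heterozygote table held 62702888 unique molecular identifiers (UMIs, 1 per captured transcript) in 7801 barcodes, and that of the wild type 58701532 in 6512. After filters and doublet removal, 6795 nuclei of the heterozygote (5770 UMIs in the median nucleus) and 6094 of the wild type (6658) remained, and 10 of the kept barcodes occurred in both libraries. Capza2 itself lay at 67.5 CPM (UMIs scaled to a total of 1000000) in the heterozygote library and 86.0 in the wild type (log2 ratio -0.35, interval -0.41 to -0.29). The libraries also differed in signs of RNA from outside the nucleus or from other cells. Mitochondrially encoded UMIs averaged 4.69 per heterozygote and 7.97 per wild-type nucleus, hemoglobin UMIs 0.234 and 0.128, and UMIs of Ttr, the transthyretin gene of the choroid plexus, 1.63 and 0.453. Their part in the ribosomal protein values was not tested.

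Ribosomal protein transcripts made up a larger share of the heterozygote library. They accounted for 312197 of 55728998 UMIs there (0.560%, interval 0.558 to 0.562) and for 250217 of 53640011 in the wild type (0.466%, 0.465 to 0.468). The log2 ratio was 0.26 (interval 0.26 to 0.27, counting error only), or 1.20-fold. Per nucleus, the mean was 45.9 ribosomal protein UMIs against 41.1, a 1.12-fold difference. The median nucleus carried a share of 0.788% in the heterozygote library and 0.589% in the wild type. Weighting nuclei of like class and depth alike in both libraries gave a log2 ratio of 0.17, or 1.13-fold. The mean of the 8 classes compared below was 0.10, and every nucleus weighted alike gave 0.44. The size of the difference therefore moved with how nuclei of different depth and class were weighted, while its direction was the same in each of these measures.

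Both subunits shared the difference. The large subunit took 0.298% of heterozygote and 0.250% of wild-type UMIs (log2 0.25, interval 0.24 to 0.27). The small subunit took 0.224% and 0.184% (log2 0.28, 0.27 to 0.29). The stalk, the flexible arm that recruits translation factors to the large subunit, took 0.0234% and 0.0192% (log2 0.28, 0.25 to 0.32). The 3 intervals overlapped or touched.

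The share depended far more on the depth of a nucleus than on the library. In nuclei with under 1000 UMIs the family made up 3.88% of heterozygote and 2.91% of wild-type UMIs. The share was 1.27% and 1.07% at 2000 to under 4000 UMIs, and 0.268% and 0.257% at 16000 UMIs or more. The log2 ratio of the lowest to the highest of 6 depth bins was 3.86 in the heterozygote library and 3.50 in the wild type. The number of ribosomal protein UMIs ran the other way, from 29.3 and 24.3 per nucleus in the shallowest bin to 71.2 and 64.6 in the deepest. Total UMIs thus differed between bins much more than ribosomal protein UMIs did. Within dentate granule-like nuclei alone, between bins that each held at least 50 nuclei of both libraries, the log2 ratio of lowest to highest bin was 1.46 in the heterozygote library and 1.38 in the wild type.

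**Figure D1:**
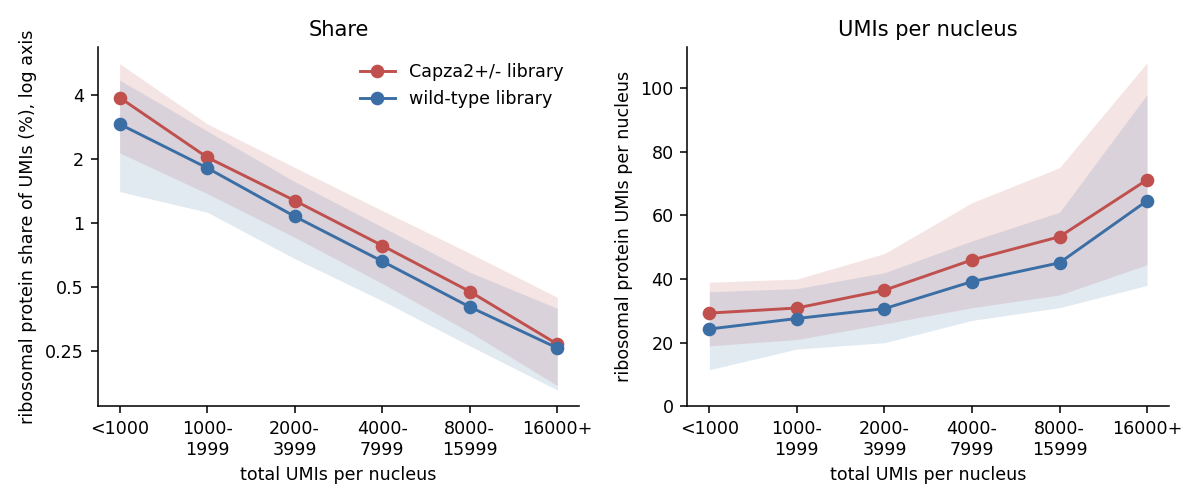
Left, ribosomal protein share of all UMIs (percent, log axis) in nuclei of 6 ranges of total UMIs, and right, ribosomal protein UMIs per nucleus (linear axis from 0). Points are the pooled share or the mean of each library, and shading spans the 10th to 90th percentile of nuclei; the share falls from 3.88% to 0.268% in the heterozygote library while UMIs per nucleus go from 29.3 to 71.2.

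Bin by bin, the heterozygote share was the higher one in 6 of 6 depth bins. The log2 ratio was 0.41 (interval 0.35 to 0.48) under 1000 UMIs, 0.17 from 1000, 0.24 from 2000, 0.25 from 4000 and 0.24 from 8000 UMIs up to the next bin, and 0.06 (0.04 to 0.08) at 16000 or more. Depth was not alike under 1000 UMIs, where the median nucleus held 700 UMIs in the heterozygote library and 854 in the wild type. How far this gap in depth enters the ratio of 0.41 was not tested. The shallowest bin held 292 heterozygote and 106 wild-type nuclei and the deepest 796 and 810, so the ends of the scale stood apart from the even middle. Hemoglobin UMIs in the shallowest bin averaged 1.16 per heterozygote nucleus and 0.0755 per wild-type nucleus.

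An unnamed cluster, shallow and with hemoglobin genes in the lead, carried a share of 4.50% in 232 heterozygote and 3.83% in 43 wild-type nuclei. Its hemoglobin UMIs averaged 1.44 per heterozygote nucleus but 0.116 per wild-type nucleus. Without this cluster the log2 ratio over all nuclei was 0.24. Barcodes below the filter of 500 genes, which are not among the nuclei kept, held 4.95% ribosomal protein UMIs in the heterozygote library (590 barcodes) and 3.73% in the wild type (87 barcodes). They carried 26.7 and 20.3 ribosomal protein UMIs each, below the 32.9 and 27.9 of oligodendrocyte-like nuclei. The difference between the libraries was 6.48 UMIs per barcode there and ranged from 1.89 (microglia-like) to 7.61 (inhibitory neuron-like) in the 8 classes of nuclei compared below. How far RNA around the nuclei enters these counts was not tested.

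Classes of nuclei were rebuilt from markers without using the ribosomal protein genes. Glia had the higher shares. In oligodendrocyte-like nuclei, the myelin-forming cells, the family took 1.67% of heterozygote and 1.41% of wild-type UMIs. In microglia-like nuclei, the resident immune cells, it took 1.92% and 1.70%, and in astrocyte-like nuclei 1.08% and 0.930%. Oligodendrocyte precursor-like nuclei lay at 0.998% and 0.745%.

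The neuronal classes of 50 nuclei or more in both libraries had lower shares, and the granule cells of the dentate gyrus stood above the pyramidal cells. Dentate granule-like nuclei lay at 0.710% and 0.619%. CA1 pyramidal-like nuclei lay at 0.365% and 0.359%, inhibitory neuron-like nuclei at 0.375% and 0.386%, and nuclei like excitatory cells of the subiculum, entorhinal area or neocortex, the subicular class below, at 0.335% and 0.316%. The lowest neuronal shares were those of the CA3 pyramidal-like (0.266% and 0.298%) and CA2 pyramidal-like nuclei (0.256% and 0.275%). A small neuronal class did not share this: Cajal-Retzius-like nuclei (37 and 30, with median depths of 2216 and 2050 UMIs) lay at 1.54% and 1.24%, above the astrocyte-like class. The order of CA1 and inhibitory neuron-like nuclei did not differ in direction between the libraries, and that of CA2 and CA3 did not either, but each of these gaps was smaller than the gap from either to the dentate class.

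Counted per nucleus, the order turned. Glia over neurons gave a log2 ratio of shares of 1.63 (interval 1.61 to 1.64) in the heterozygote library and 1.49 (1.48 to 1.51) in the wild type. Ribosomal protein UMIs per nucleus were 32.9 and 27.9 in oligodendrocyte-like and 30.4 and 28.5 in microglia-like nuclei, but 53.0 and 46.1 in dentate granule-like, 47.3 and 40.5 in CA1 and 56.3 and 51.3 in CA2 pyramidal-like nuclei. The deeper neuronal nuclei therefore held more ribosomal protein UMIs and a smaller share of them.

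Within a depth bin the gap between glia and neurons was smaller, though depth still differed inside a bin. From 2000 to under 4000 UMIs, median depth was 2413 and 2379 UMIs in oligodendrocyte-like and 3354 and 3298 in dentate granule-like nuclei. Ribosomal protein UMIs per nucleus were 36.3 and 28.4 against 39.1 and 35.3, higher in the dentate class. In nuclei of this bin the share was 1.42% and 1.13% in oligodendrocyte-like and 1.19% and 1.09% in dentate granule-like nuclei. In the wild-type library the astrocyte-like nuclei of that depth lay at 1.07%, so the dentate class lay between both glial classes there. In nuclei of 4000 to under 8000 UMIs it was 0.888% and 0.751% in oligodendrocyte-like nuclei (22 in each library), 0.843% and 0.723% in dentate granule-like and 0.599% and 0.559% in CA1 pyramidal-like nuclei. Astrocyte-like nuclei of that depth lay at 0.903% and 0.950% (44 and 43 nuclei). By pooled share the dentate class thus lay below these glia, apart from the wild-type astrocyte-like nuclei of 2000 to under 4000 UMIs. The median wild-type nucleus of 4000 to under 8000 UMIs gave another order. It carried 0.711% in the dentate, 0.646% in the oligodendrocyte-like and 0.715% in the astrocyte-like class. The CA1 class of that depth lay below the dentate class and these glia by either measure. How far depth inside a bin enters these gaps was not tested. Thinning each nucleus to 1000 UMIs, which leaves the expected share of a nucleus as it is, gave 1.82% and 1.54% in 1090 and 773 oligodendrocyte-like nuclei and 0.418% and 0.431% in 787 and 925 CA1 pyramidal-like nuclei.

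**Figure D2:**
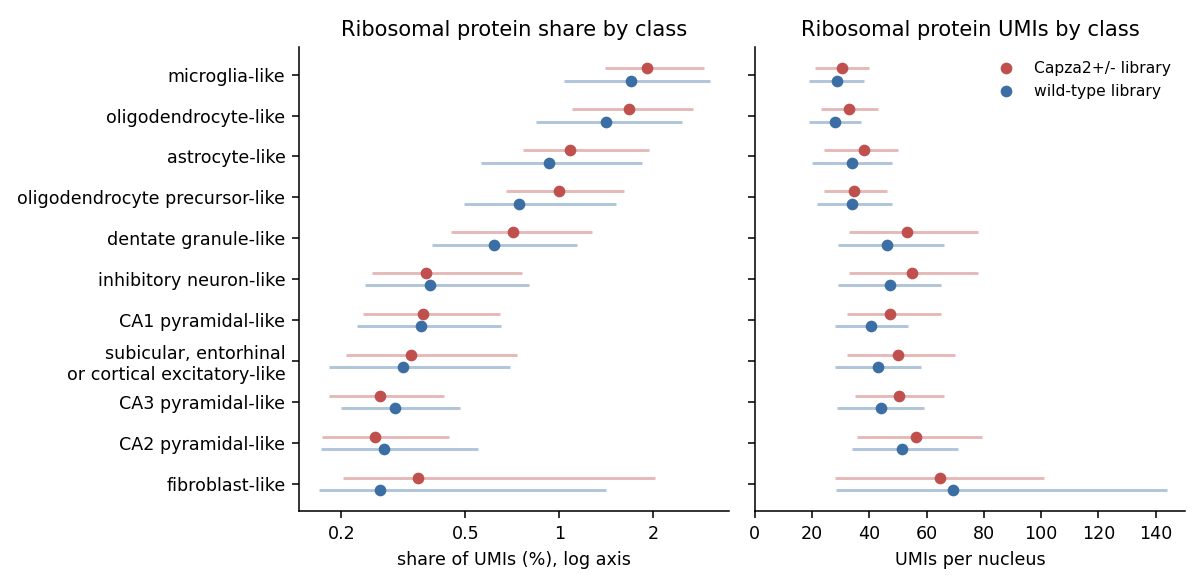
Ribosomal protein share of UMIs (percent, log axis, left) and ribosomal protein UMIs per nucleus (right) in 11 classes, those of 50 nuclei or more in both libraries, ordered by the wild-type share. Points are pooled shares or means and bars span the 10th to 90th percentile of nuclei; microglia-like nuclei reach 1.92% and CA2 pyramidal-like nuclei 0.256% in the heterozygote library, while the CA2 class holds more of these UMIs per nucleus.

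The fibroblast-like class (70 and 75 nuclei) combined a low share, 0.352% and 0.267%, with the most ribosomal protein UMIs per nucleus of these classes, 64.5 and 69.3. Its nuclei were deep, with medians of 14928 and 15905 UMIs, and their mean doublet score was 2.88 times that of all nuclei. With doublets kept, clustering gave a fibroblast-like class of 64 nuclei with a median of 2533 UMIs, so the values belong to this grouping of nuclei and are not compared between the libraries. Within classes, subclusters differed too: the larger dentate cluster by heterozygote nuclei held 0.940% and 0.908%, the other 0.549% and 0.518%, with median depths of 5156 and 4519 against 8858 and 7798 UMIs.

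Between the libraries, the share was the higher one in the heterozygote in 6 of the 8 classes that reached 200 nuclei in both. The log2 ratio was 0.25 in oligodendrocyte-like (interval 0.22 to 0.27), 0.22 in astrocyte-like, 0.20 in dentate granule-like, 0.18 in microglia-like and 0.09 in the subicular class. It was 0.02 (0.00 to 0.04) in CA1 pyramidal-like nuclei. It was below 0 in inhibitory neuron-like (-0.04, interval -0.07 to -0.01) and CA3 pyramidal-like nuclei (-0.16, -0.20 to -0.12).

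Some of these ratios moved with the grouping of nuclei. The dentate clusters were filled unequally, with 1120 heterozygote and 579 wild-type nuclei in the one of higher share and 926 and 896 in the other. Within them the log2 ratio was 0.05 (interval 0.03 to 0.07) and 0.08 (0.06 to 0.10), and weighting the clusters alike in both libraries gave 0.07 in place of 0.20. Matching dentate nuclei by depth bin instead left the ratio at 0.20. Heterozygote nuclei were deeper within both clusters (log2 ratio of mean total UMIs 0.20 and 0.09). Ribosomal protein UMIs per nucleus were also higher in both (0.25 and 0.18). How far the mix of clusters and the depth each enter the dentate difference was not tested. The astrocyte-like ratio of 0.22 was 0.07 with doublets kept, 0.06 with Scrublet's automatic threshold and 0.70 with each library clustered separately. The subicular ratio was 0.41 under separate clustering and lay at -0.01, 0.10 and 0.15 in its 3 clusters.

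The classes with low ratios were those whose heterozygote nuclei were deeper. The log2 ratio of mean total UMIs per nucleus was 0.35 in the CA3, 0.26 in the inhibitory and 0.20 in the CA1 class, against 0.00 in the dentate and -0.01 in the oligodendrocyte-like class. Ribosomal protein UMIs per nucleus were higher in the heterozygote library in 8 of 8 classes, with log2 ratios from 0.09 in microglia-like to 0.24 in oligodendrocyte-like nuclei. With nuclei of each class matched by depth bin, the share was also higher in 8 of 8, from 0.06 in the CA3 to 0.25 in the oligodendrocyte-like class. Within single bins the inhibitory class was mixed: 0.28 (0.23 to 0.33) at 8000 to under 16000 UMIs and -0.11 (-0.15 to -0.06) at 16000 or more. Ttr UMIs per nucleus were higher in the heterozygote library in all 8 classes, with log2 ratios from 1.67 to 2.47, and mitochondrially encoded UMIs were lower in all 8, from -0.86 to -0.21. Their part in these ratios was not tested.

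**Figure D3:**
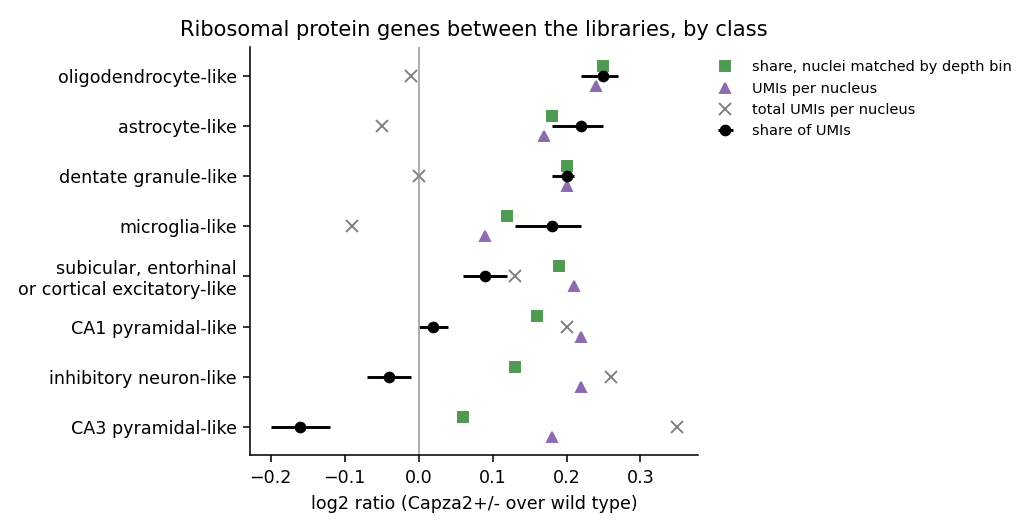
Log2 ratio, heterozygote over wild type, in the 8 classes compared: share of UMIs with its 95% counting interval (black), share with nuclei matched by depth bin (squares), ribosomal protein UMIs per nucleus (triangles) and total UMIs per nucleus (crosses). The share runs from -0.16 in the CA3 to 0.25 in the oligodendrocyte-like class, while squares and triangles lie above 0 in every class shown.

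Over all nuclei, with classes mixed as they came, nearly all members lay on the same side. Of the 86 genes, 83 reached 200 UMIs over both libraries, a floor on their sum, and 82 of these (98.8%) were higher in the heterozygote library, where 47.8% of the 14457 genes at that floor were. By more than 25%, the fold used below for a call, 21 members (25.3%) were higher, beside 4.97% of all genes. That count was 14 with doublets kept, 11 with at least 1000 genes per nucleus, 40 after thinning to 1000 UMIs (all genes, 7.72%) and 69 with every nucleus weighted alike (12.1%). No member was lower by the same fold (20% or more), beside 4.51% of all genes. The family's median log2 ratio was 0.28, with quartiles of 0.21 and 0.32 and a range from -0.03 to 0.43, and the median of all genes was -0.01. All 77 core members were above 0. These ratios are not matched for class. The heterozygote library held more dentate granule-like (2046 and 1475) and oligodendrocyte-like nuclei (1130 and 799), which have higher shares. It held fewer subicular (332 and 537) and inhibitory neuron-like nuclei (322 and 444), while CA3 numbers were close (219 and 209). Within classes, described below, from 11 of 55 (CA3) to 77 of 79 members (oligodendrocyte-like) were higher. The part of the class mix was not tested. No p-value is given because each genotype has 1 library.

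**Figure D4:**
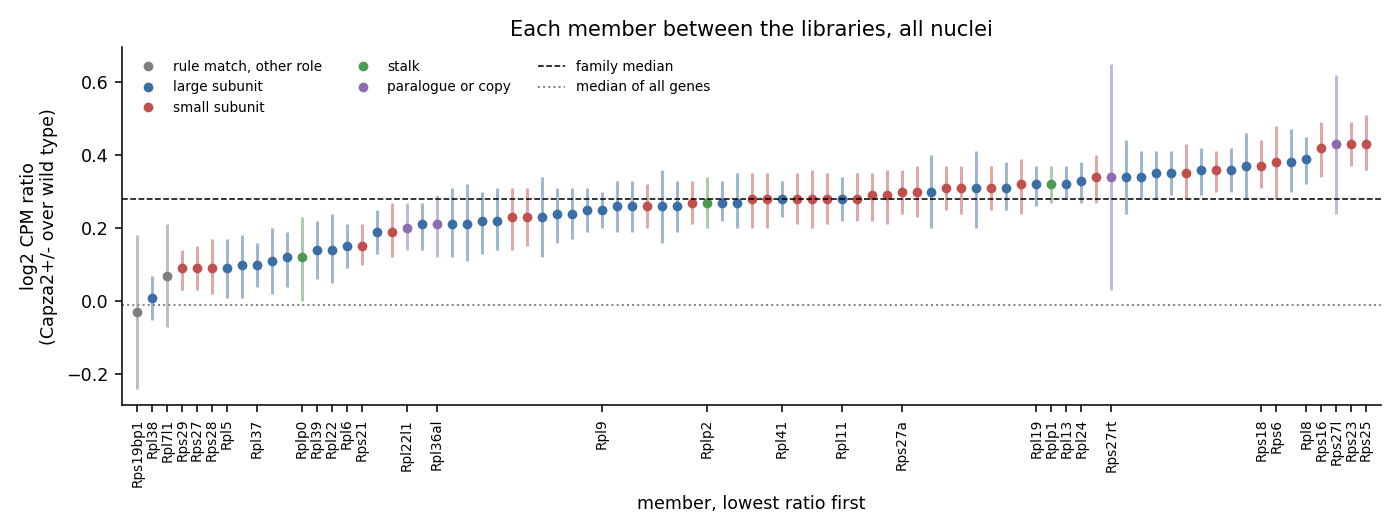
Log2 of heterozygote CPM over wild-type CPM for the 83 members at the floor, ordered from Rps19bp1 (-0.03) to Rps25 (0.43). Symbols are printed for some of the members described in the text, bars are 95% counting intervals, colours give the group, and the lines mark the family median (0.28) and the median of all genes (-0.01).

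In the small subunit, 8 of 31 proteins were more than 25% higher, with a median log2 ratio of 0.29. Rps23, which lies near the decoding centre where codon and tRNA meet, had 5604 and 3995 UMIs, or 101 and 74.5 CPM, and stood above the family median by 0.16 (log2 ratio 0.43, interval 0.37 to 0.49). Rps25, needed by several viral internal ribosome entry sites, lay at 62.5 and 46.2 CPM (0.43, 0.36 to 0.51). Rps16 lay at 65.1 and 48.8 CPM (0.42) and Rps18 at 77.2 and 59.6 (0.37). These 4 small subunit proteins had interval bounds above the family median. Rps6, the target of the Rps6 kinases, lay at 35.0 and 26.9 CPM (0.38, 0.28 to 0.48), with a lower bound 0.01 above that median.

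The other end of the small subunit held its smallest proteins. Rps29, a zinc-binding protein, lay at 100 and 94.3 CPM (log2 0.09, interval 0.03 to 0.14). Rps27 lay at 84.0 and 78.9 (0.09) and Rps28 at 54.9 and 51.5 (0.09). Their intervals lay below the family median of 0.28. Rps27a, made as a fusion with ubiquitin, lay at 99.4 and 80.7 CPM (0.30), near the median, and Rps21 at 97.6 and 87.7 (0.15).

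In the large subunit, 11 of 43 proteins were more than 25% higher, with a median of 0.26. Rpl8, a protein close to the peptidyl transferase centre, lay at 81.4 and 62.2 CPM (log2 0.39, interval 0.32 to 0.45). Rpl38, linked in mice to the translation of Hox mRNAs, lay at 78.3 and 77.7 CPM and was the core member with the lowest ratio (0.01, -0.05 to 0.07), 0.27 below the family median. Its gene lies on chromosome 11 from 114668524 to 114672331 (GRCm38, plus strand). Rpl37 lay at 90.3 and 84.1 CPM (0.10, 0.04 to 0.16).

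Rpl5 and Rpl11 enter the large subunit together with the 5S ribosomal RNA, and free of the ribosome they bind Mdm2, the inhibitor of p53. Rpl5 lay at 52.4 and 49.2 CPM (log2 0.09, interval 0.01 to 0.17) and Rpl11 at 93.3 and 76.7 (0.28, 0.22 to 0.34). The intervals of these partners did not overlap. In the stalk, Rplp1 lay at 140 and 112 CPM (0.32), Rplp2 at 70.7 and 58.6 (0.27) and Rplp0, the base of the stalk, at 23.0 and 21.3 (0.12, 0.00 to 0.23). None of the 3 was more than 25% higher.

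The members with the most UMIs were spread over the range of ratios. Rpl13 had 7896 and 6072 UMIs (log2 0.32), Rplp1 7815 and 6018, Rpl9 6999 and 5658 (0.25), Rpl41 6489 and 5151 (0.28), Rpl19 6424 and 4965 (0.32) and Rpl27a 6243 and 4972 (0.27). Rps29, Rps21 and Rpl24 (0.33) were also among them. UMI numbers are per gene and not per length. Over the core members, Spearman's rho of UMIs and log2 ratio was 0.16. The 9 members whose loss is linked to Diamond-Blackfan anaemia, an inherited failure of red cell production, had a median of 0.28 (range 0.09 to 0.34), and 1 was more than 25% higher. The 30 core members that carry a small nucleolar RNA gene within them had a median of 0.28, and so did the 47 without one. The 25 core members with a pyrimidine run at a start had a median of 0.27, and the 32 with a window but no run also had 0.27.

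Many of the low members had a short coding sequence: of the 12 core members with the lowest ratios, 6 had up to 100 codons. This split was chosen after the ratios were seen. The 9 core members of up to 100 codons (Rpl37, Rpl37a, Rpl38, Rpl39, Rpl41, Rps21, Rps27, Rps28 and Rps29) had a median log2 ratio of 0.10, range 0.01 to 0.28, and none was more than 25% higher. The 46 of over 100 to 200 codons had a median of 0.28 (0.12 to 0.43), and the 22 longer ones 0.29 (0.09 to 0.39). Rpl41, the shortest with 25 codons, lay at the family median and outside the pattern. The 6 longer members among the lowest 12 were Rpl5 (0.09), Rpl10a (0.10), Rpl14 (0.11), Rpl36 (0.12), Rplp0 (0.12) and Rpl22 (0.14). Over all 77, Spearman's rho of codons and ratio was 0.23, a description over genes that share the same libraries.

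**Figure D5:**
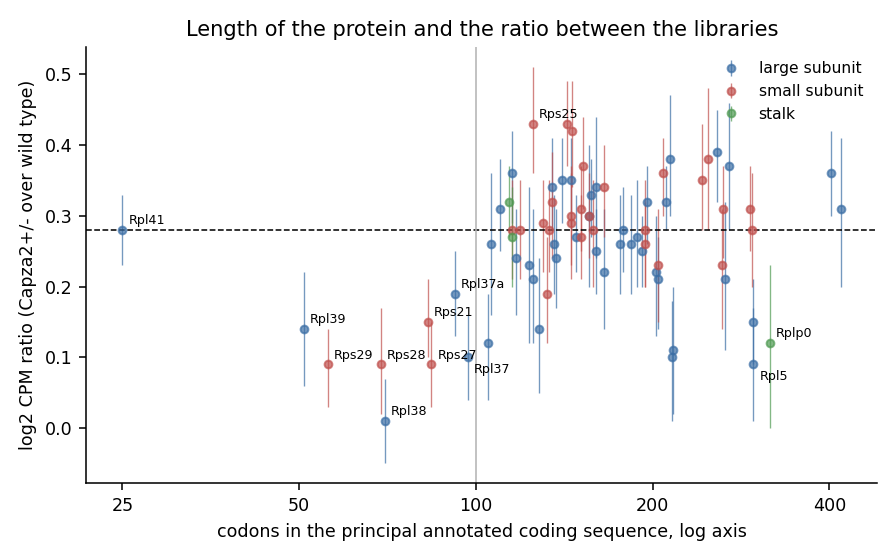
Log2 of heterozygote CPM over wild-type CPM against the number of codons (log axis) for the 77 core members, with 95% counting intervals and the family median as a dashed line. The members left of 100 codons have a median of 0.10 and reach 0.28 with Rpl41; those to the right span 0.09 to 0.43.

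The short core members stood below the others in each of the 8 classes. These classes are parts of the nuclei in which the split was chosen, so they are no separate check of it. Summed over the 9 genes, the log2 ratio was 0.08 (interval 0.04 to 0.12) in dentate granule-like nuclei, against 0.23 (0.21 to 0.24) for members of over 100 to 200 codons. It was -0.16 against 0.07 in the CA1, -0.31 against -0.13 in the CA3, -0.14 against -0.02 in the inhibitory, 0.14 against 0.25 in the oligodendrocyte-like and -0.04 against 0.19 in the microglia-like class. In the astrocyte-like class it was 0.05 against 0.23, and in the subicular class -0.07 against 0.13. Over all nuclei, genes outside the family with up to 100 codons had a median of 0.12, those of over 100 to 200 codons 0.07 and longer ones -0.02, so the order by length was the opposite there. In 3 neuronal classes it was not: the shortest other genes had the lowest median in the CA3 (-0.15, then -0.09 and -0.05), the inhibitory (-0.08, -0.03 and -0.03) and the CA1 class (-0.06, -0.04 and -0.05), as the short members did.

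Single departures were also seen by class. Rpl38 lay at 99.0 and 99.3 CPM in dentate granule-like nuclei (log2 -0.00) and at 50.7 and 66.2 in CA1 pyramidal-like nuclei (-0.39, interval -0.55 to -0.22). It was lower in the inhibitory class too, at 49.8 and 64.7 CPM (-0.38), and in the CA3 class at 40.6 and 53.9 (-0.41). In oligodendrocyte-like nuclei it lay at 254 and 234 CPM (0.12, -0.07 to 0.31). Rpl38 was the lowest member of the CA1, the microglia-like and the subicular classes. Rps23 was above 0 in all 8, with 128 and 101 CPM in dentate granule-like (0.34), 66.6 and 51.5 in CA1 (0.37) and 58.5 and 55.3 in inhibitory neuron-like nuclei (0.08, -0.16 to 0.32).

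How many members were higher in the heterozygote library changed with the class. In oligodendrocyte-like nuclei 77 of 79 members at the floor were higher, 27 by more than 25% (all genes, 7.55%) and 0 lower by the same fold (all genes, 4.81%). In dentate granule-like nuclei 76 of 81 were higher, 8 past the fold (4.07%), and 0 lower past it (3.73%). In astrocyte-like nuclei 56 of 63 were higher, 22 past the fold (7.47%), and 1 lower past it (6.65%). In microglia-like nuclei 32 of 39 were higher, 11 past the fold (8.68%), and 0 lower past it (7.54%). In these 4 classes most members thus lay on the side seen over all nuclei. Their median log2 ratio was 0.24 in the oligodendrocyte-like, 0.20 in the dentate, 0.23 in the astrocyte-like and 0.18 in the microglia-like class. The median of all genes at the floor lay between -0.00 and 0.01 in these classes.

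In the deeper neurons a smaller part of the members was higher. In CA1 pyramidal-like nuclei 48 of 80 members were higher, 1 past the fold (all genes, 2.24%), and 1 lower past it (6.23%). In the subicular class 58 of 78 were higher, 6 past the fold (3.03%), and 0 lower past it (5.53%). In inhibitory neuron-like nuclei 31 of 76 were higher, 0 past the fold (3.22%), and 2 lower past it (5.47%). In CA3 pyramidal-like nuclei 11 of 55 were higher, 0 past the fold (2.45%), and 11 lower past it (8.48%). The median log2 ratio of members was 0.02 in the CA1 class (all genes, -0.05) and 0.09 in the subicular class (-0.03). It was -0.03 in the inhibitory class (-0.03) and -0.18 in the CA3 class (-0.05). Members thus lay with all genes in the inhibitory class, above them in the CA1 and subicular classes, and below them in the CA3 class. Fewer members reach the floor in shallow or small classes, so the members counted are not the same in each.

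The composition of the family varied little from class to class. Each member was taken as a share of all ribosomal protein UMIs in a class and in all other nuclei. Of 639 pairs of member and class at the floor, 600 (93.9%) lay within the same fold of each other in both libraries. Of all pairs of gene and class at the floor, each gene's level relative to the median gene of the class, 49.5% did. Members were scaled to the family sum and other genes to the median gene. The floor within a class also favours genes that are high there. These shares therefore do not rank the family against other genes, and the same holds for the shares of all genes past 1.5-fold given below. The rank correlation of composition between each of the 8 classes and all nuclei, which contain them, was 0.95 to 0.99 in the heterozygote and 0.92 to 0.99 in the wild-type library. For the barcodes under 500 genes it was 0.95 over 15397 UMIs and 0.79 over 1720 UMIs.

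Past 1.5-fold in the same direction in both libraries, 1 member stood out in the 11 classes: Rpl6 in CA2 pyramidal-like nuclei. Of all genes 12.7% were past that fold in the CA2 class. In the other classes, with 0 members past it, 4.35% were in fibroblast-like, 12.3% in CA1, 14.1% in subicular, 16.0% in CA3, 16.8% in dentate, 18.7% in inhibitory, 40.1% in oligodendrocyte precursor-like, 49.5% in astrocyte-like, 52.3% in oligodendrocyte-like and 60.9% in microglia-like nuclei. Rpl6, a large subunit protein that is also recruited to damaged DNA, made up 2.84% and 2.91% of ribosomal protein UMIs there, and 1.62% and 1.73% in other nuclei (log2 0.81 and 0.75, intervals 0.63 to 0.98 and 0.59 to 0.90). It was 2.37% and 2.51% in CA3 and 1.98% and 1.99% in CA1 pyramidal-like nuclei, 1.57% and 1.71% in dentate granule-like nuclei, and 1.16% and 1.16% in oligodendrocyte-like nuclei. The order from CA2 over CA3 and CA1 to glia was the same in both libraries. The Rpl6 gene lies on chromosome 5 from 121204481 to 121209241 (GRCm38, plus strand).

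Rpl7l1, a nucleolar relative of Rpl7, was the member with the largest gap between glia and neurons: 0.150% against 0.301% of family UMIs in the heterozygote and 0.175% against 0.339% in the wild type (log2 -1.01 and -0.96). Rpl6 followed with -0.56 and -0.68. Rpl5 had -0.33 and -0.36. Rps2 (-0.35 and -0.46) and Rpl10a (-0.40 and -0.35), picked after their values were seen, were also a smaller part of the family in glia. Over the 83 members the sign was the same in both libraries for 62.

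The paralogues showed which copy was counted. Rpl22l1, the paralogue of Rpl22, an RNA-binding large subunit protein, lay at 70.7 and 61.4 CPM, and Rpl22 at 31.9 and 28.8. Rpl22l1 thus held 68.9% (interval 67.7 to 70.1) and 68.0% (66.7 to 69.4) of the UMIs of the pair. Across classes the highest value was 76.0% (70.1 to 81.3), in heterozygote astrocyte-like nuclei. The lowest was 57.6% (46.9 to 67.9, from 53 and 39 UMIs), in wild-type fibroblast-like nuclei, where the heterozygote library had 69.6%. Rpl36al, a paralogue of Rpl36a, held 57.5% and 58.3% of its pair (45.1 and 39.0 CPM). Rps27l, a p53-induced relative of Rps27, lay at 10.0 and 7.44 CPM, 10.7% and 8.62% of its pair. Its log2 ratio was 0.43 (interval 0.24 to 0.62), where that of Rps27 was 0.09.

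Rare copies gave little. Rpl3l, the muscle form of Rpl3, had 21 and 15 UMIs, 0.369% and 0.351% of its pair. Rpl10l and Rpl39l, known from the testis, had 0 UMIs in both libraries, which allows up to 0.0538 CPM in the heterozygote and 0.0559 in the wild type. Rps27rt, a repeat copy of Rps27, had 209 and 159 UMIs (log2 0.34, interval 0.03 to 0.65). Ribosomal protein genes have many near-identical processed copies, and reads shared with such copies can be dropped or moved, so single-member levels are uncertain to that extent. The 2 genes that match by symbol alone were among the lowest: Rps19bp1, which binds Rps19, at 6.71 and 6.86 CPM (-0.03, -0.24 to 0.18), and Rpl7l1 with 836 and 767 UMIs (0.07, -0.07 to 0.21).

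The genes around the ribosome were counted from lists. Of 5 companions outside the symbol rule, 4 were higher in the heterozygote library and 0 past the fold, with a median log2 ratio of 0.25. Fau, whose product is cleaved to the small subunit protein eS30, lay at 114 and 91.0 CPM (0.32, interval 0.27 to 0.38).

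Translation factors were closer to all genes: 29 of 41 were higher, 0 were past the fold in either direction, and the median was 0.06. Eef1a1, which delivers tRNAs to the ribosome, lay at 143 and 121 CPM (0.23) and Eif1, which guards start codon choice, at 124 and 103 (0.27). Of 42 ribosome assembly factors, 16 were higher and 26 lower, with a median of -0.03 and 1 past the fold in each direction. Mitochondrial ribosomal proteins had a median of 0.08 (64 of 78 higher). Of 88 nuclear-encoded respiratory chain genes at the floor, 76 were higher, with a median of 0.16, while 5 were past the fold and 0 lower past it, beside 4.97% and 4.51% of all genes.

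The respiratory chain genes, which are short and abundant like the ribosomal protein genes, also had a larger share in shallow nuclei: 2.99% and 2.33% of UMIs in nuclei under 1000 UMIs and 0.286% and 0.281% at 16000 or more. The ribosome assembly factors went from 0.272% and 0.199% to 0.0869% and 0.0904%. The translation factors went from 0.850% and 0.595% to 0.142% and 0.148%, and the mitochondrial ribosomal proteins from 0.527% and 0.440% to 0.114% and 0.114%. Mitochondrially encoded genes also fell with depth, from 0.423% and 0.337% to 0.0306% and 0.0562%. They were lower in the heterozygote library (median log2 ratio -0.64). How the course over depth bears on the ratios of these lists was not tested.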

How the data were processed

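Per the labels, nuclear RNA was read with 10x 3′ v3 chemistry from nuclei isolated from frozen tissue. The deposited tables are raw UMI counts for each gene in each barcode. Per the submitters' processing notes, the authors used Cell Ranger 7.1.0 and mm10; whether intronic reads were counted was not stated there. Barcodes with at least 500 genes and at most 5% mitochondrial UMIs were kept. Scrublet's automatic threshold marked 0.0139% and 8.05% of barcodes, so in both libraries the highest scores up to the expected rate were removed instead (416 and 330 nuclei). Nuclei were clustered together in scanpy 1.11.5 (2000 variable genes without ribosomal protein genes, 30 components, Leiden resolution 1) and named from markers, so class names are rebuilt. Shares and ratios carry exact binomial 95% intervals, which cover counting error only and were tested on simulated data. Named genes were the 6 highest and 6 lowest against the family median, the 10 with most UMIs, the paralogues, stalk, 5S and ubiquitin-fusion members, and members past 1.5-fold by class. Some genes that this rule picks are not reported here. The members, lists and rules were chosen with earlier results of these data known. Gene positions and principal coding sequences come from GENCODE M21, where all 86 members were found, and start sequences from RefSeq. Alternatives varied the filters, doublets, weighting, depth, denominator, members and clustering.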

Additional observations from a re-analysis of the deposited data

Results flagged for a closer look

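In CA3 pyramidal-like nuclei the ribosomal protein share was lower in the heterozygote library (log2 ratio -0.16) while in 5 other classes the interval of the ratio lay above 0; the difference between classes was not tested. Inhibitory neuron-like nuclei also lay below 0 (-0.04), and that difference was not tested either. Barcodes under 500 genes, which are not among the nuclei kept, carried ribosomal protein transcripts at 4.95% of their UMIs in the heterozygote library.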

How the results depend on the processing

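With 1 library per genotype no value has a replicate check, and intervals cover counting error only. No paired analysis was possible either, as each genotype has only 1 library. Of the values compared, 35 that answer a comparison and 137 others moved by less than their interval or, for counts, by less than 1.5 times, while 22 and 31 moved by more and 8 with an interval to one side of 0 changed sign. The log2 ratio of the family share over all nuclei (0.26) was 0.24 with doublets kept, 0.23 with at least 1000 genes, 0.44 with every nucleus weighted alike, 0.32 thinned to 1000 UMIs and 0.10 as the mean of the 8 classes. Chosen after seeing the data, matching for class and depth gave 0.17 and leaving out the shallow unnamed cluster 0.24. Glia over neurons (1.63 heterozygote, 1.49 wild type) was 1.52 and 1.41 with at least 1000 genes, 1.45 and 1.44 weighted alike, 1.44 and 1.41 thinned, and 1.64 and 1.51 without mitochondrial, hemoglobin, Ttr and Malat1 UMIs. The wild-type value was 1.58 with doublets kept and 1.51 at Leiden resolution 2. Lowest over highest depth (3.86 and 3.50) was 3.76 and 3.42 with doublets kept, and 1.46 and 1.38 in dentate granule-like nuclei. Members more than 25% higher in the heterozygote (21) numbered 40 after thinning, 69 with every nucleus weighted alike, 14 with doublets kept and 11 with at least 1000 genes. The inhibitory class (-0.04) turned to 0.01 with doublets kept, 0.09 with at least 1000 genes, 0.07 without the mitochondrial limit, 0.04 weighted alike and, both added later, 0.13 matched for depth and 0.22 per nucleus. The CA3 class (-0.16) turned to 0.06 matched for depth and 0.18 per nucleus. The CA1 class lay at -0.04 after thinning, and with each library clustered separately the astrocyte-like ratio (0.22) was 0.70 and the subicular one (0.09) 0.41. With doublets kept the astrocyte-like ratio was 0.07, and with clusters matched, added later, the dentate ratio (0.20) was 0.07. The cause of these moves was not tested.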

Other observations

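Of the members at the ends of the range within each class, Rpl38, Rps29, Rps23 and Rps25 were also at the ends over all nuclei and the following were chosen after their values were seen. In oligodendrocyte-like nuclei Rps6, whose phosphorylation is a common marker of neuronal and glial mTOR activity, had the highest ratio, with 293 and 135 UMIs (132 and 85.2 CPM, log2 0.63, interval 0.33 to 0.93). It was also the highest in the subicular class, at 24.8 and 18.0 CPM (0.46, 0.10 to 0.83), while in inhibitory neuron-like nuclei it lay at 22.1 and 23.4 CPM (-0.08, -0.47 to 0.30). Rpl35a was the highest in astrocyte-like nuclei, at 183 and 124 CPM (0.56, 0.25 to 0.88), and Rps2 in microglia-like nuclei, at 269 and 195 (0.46, 0.05 to 0.89). At the low end, Rps26 lay at 35.1 and 46.8 CPM in inhibitory neuron-like nuclei (-0.42, -0.71 to -0.13) and Rpl36 at 129 and 145 UMIs in astrocyte-like nuclei (-0.39, -0.74 to -0.04). These counts are small, and the intervals cover counting error only.

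Nuclei removed as doublets held ribosomal protein UMIs at 0.478% in the heterozygote library and 0.457% in the wild type, with 76.5 and 69.5 such UMIs each.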
